A study of Mus musculus with 13 samples.

Results

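The 10 genes described here, Cdk1, Ccnb1, Ccnb2, Cdca3, Plk1, Aurka, Bub1, Knstrn, Mki67 and Top2a, encode proteins with which a cell enters mitosis, aligns and separates its chromosomes and leaves mitosis again. They are 10 of the 24421 gene symbols of the count table, chosen by symbol. All 10 were found in the table and all 10 passed the filter on low counts, with at least 133 reads in every library. The set was put together with earlier results of the same group comparisons in view, among them lower proliferation genes in recurrent tumors under stavudine, so the levels and fold changes are given as a description, with counts of calls and no further test. Total RNA depleted of ribosomal RNA was sequenced from 13 tissues of female mice of the strain FVB/N-TgN (MMTV-HER2/neu), line 202Mul/J. All of these mice, those that gave the glands included, carry a rat HER2/neu cDNA under the mouse mammary tumor virus promoter, which is active in mammary epithelium, and their tumors arise spontaneously. The groups were 2 cancer-free mammary glands of untreated mice, 3 primary untreated tumors, 3 primary tumors of mice that drank stavudine (STV, a nucleoside inhibitor of reverse transcriptase, 1 mg/mL), 3 recurrent tumors that had regrown after a complete response to the HSP90 inhibitor 17-DMAG (20 mg/kg, 3 injections per week), and 2 recurrent tumors that had regrown after 17-DMAG in mice kept on STV. According to the methods of the study, 17-DMAG injections went on while tumors regrew, up to collection at the end-point size. Both recurrent groups thus grew under continuing 17-DMAG. The study reports that recurrence came later in mice given STV. The time under the drug before collection may therefore have differed between the recurrent groups, and it is not given for single tumors. Comparisons of recurrent tumors with and without STV cannot separate STV from this time, whose part was not tested. The primary STV tumors arose in mice already on STV. For the study as a whole STV was started at 2 months of age or once a primary tumor had appeared, and the labels do not say which applies to the recurrent 17-DMAG plus STV tumors. The age of the mice at collection is not given in the sources used here.

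Entry into mitosis is set off by the kinase Cdk1 bound to a B-type cyclin. Plk1 and Aurka switch this kinase on and build the spindle, Bub1 and Knstrn act at the kinetochore, where microtubules grip the chromosome, and Top2a and Mki67 shape and separate the chromosomes themselves. Exit follows when a ubiquitin ligase, the anaphase-promoting complex (APC/C), marks cyclin B and securin for destruction. The transcripts of these genes accumulate in the G2 phase and in mitosis and are scarce in resting cells, which is why Mki67 and its companions are read as proliferation markers in breast tumors.

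The promoters of such genes often hold a CHR element, with the core TTTGAA or the variant TTTAAA, and CCAAT boxes. These letters were searched for on both strands of 300 bases per gene, 250 before and 50 after the transcript start, in RefSeq sequences of GRCm38.p6, where all 10 genes were matched. TTTGAA was present in 7 of 10 promoters, against 17.9% of 32851 mouse promoters of the same length. TTTGAA or TTTAAA was present in 8 of 10, against 27.6%, and CCAAT in 9 of 10, against 37.4%. CCAAT together with either hexamer was found in 8 of 10, against 10.7% of all promoters. The hexamers and CCAAT share no stretch of sequence with each other, ATTGG is CCAAT read on the other strand, and a match describes the letters only. The windows below are shown because they are the sequence feature that most of the genes share. Each holds 30 bases on the gene's own strand, 5′ to 3′, with the hexamer in capitals. In the Top2a window it is read as its reverse complement.
Cdk1: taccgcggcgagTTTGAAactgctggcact
Ccnb1: agcggcccggggTTTAAAcctaagcccggc
Ccnb2: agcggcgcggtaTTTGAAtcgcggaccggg
Cdca3: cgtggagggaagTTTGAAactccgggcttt
Plk1: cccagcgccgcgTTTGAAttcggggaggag
Aurka: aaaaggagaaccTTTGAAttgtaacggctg
Mki67: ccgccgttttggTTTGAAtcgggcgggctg
Top2a: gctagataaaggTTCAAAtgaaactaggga

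These windows lie at chr10:69352910-69352939 for Cdk1, chr13:100786511-100786540 for Ccnb1, chr9:70421533-70421562 for Ccnb2 and chr6:124830194-124830223 for Cdca3. Those of the other genes lie at chr7:122159453-122159482 for Plk1, chr2:172370521-172370550 for Aurka, chr7:135716460-135716489 for Mki67 and chr11:99024195-99024224 for Top2a. Genes on the minus strand are Cdk1, Ccnb1, Ccnb2, Aurka, Bub1, Mki67 and Top2a. Bub1 had CCAAT at 2 places and neither hexamer, and Knstrn had none of the 3 motifs in its window. CCAAT boxes were densest at Top2a, with 6 matches. The promoter of Cdk1 shows both motifs side by side. A CCAAT box on the reverse strand stands 80 bases before the start and a second hexamer 71 bases before it, both within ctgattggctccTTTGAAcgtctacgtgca (chr10:69352966-69352995).

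Library totals ran from 39921388 to 56887708 counts, and levels are given as CPM, which are read counts scaled to the total of the library and by TMM factors, which correct for the composition of each library. The TMM factor was 0.493 in gland 2, a library rich in milk protein reads, 1.12 in gland 1 and 0.999 to 1.09 in the tumors. At these depths 3 counts, the floor of detection, equalled 0.0587 to 0.107 CPM. The 95% exact Poisson interval of a member's count reached at most 17.4% of the value away from it, as the mean of its upper and lower reach. This covers counting error only, so the spread between tumors is the larger error. As a check of the tissue, the summed level of 8 luminal epithelium markers was 1582 to 3159 CPM in the tumors and 2042 to 2565 CPM in the glands.

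Across the 5 groups the 10 genes took the same overall shape, as seen in the plot of all libraries. Recurrent 17-DMAG tumors had the highest group mean and recurrent 17-DMAG plus STV tumors the lowest group mean of the 4 tumor groups for 10 of 10 genes, with the primary tumors between. In the order of group means, the glands and the recurrent 17-DMAG plus STV tumors were neighbours and overlapped for 9 of 10 genes, and the primary untreated and primary STV tumors were neighbours and overlapped for 10 of 10. Each recurrent 17-DMAG tumor was above each primary tumor, untreated or STV, for 4 of 10, namely Ccnb1, Plk1, Aurka and Mki67, against 2.22% of all genes tested. In bulk tissue, fewer dividing cells and less of a transcript per dividing cell cannot be told apart. That holds for every level given here.

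**Figure D1:**
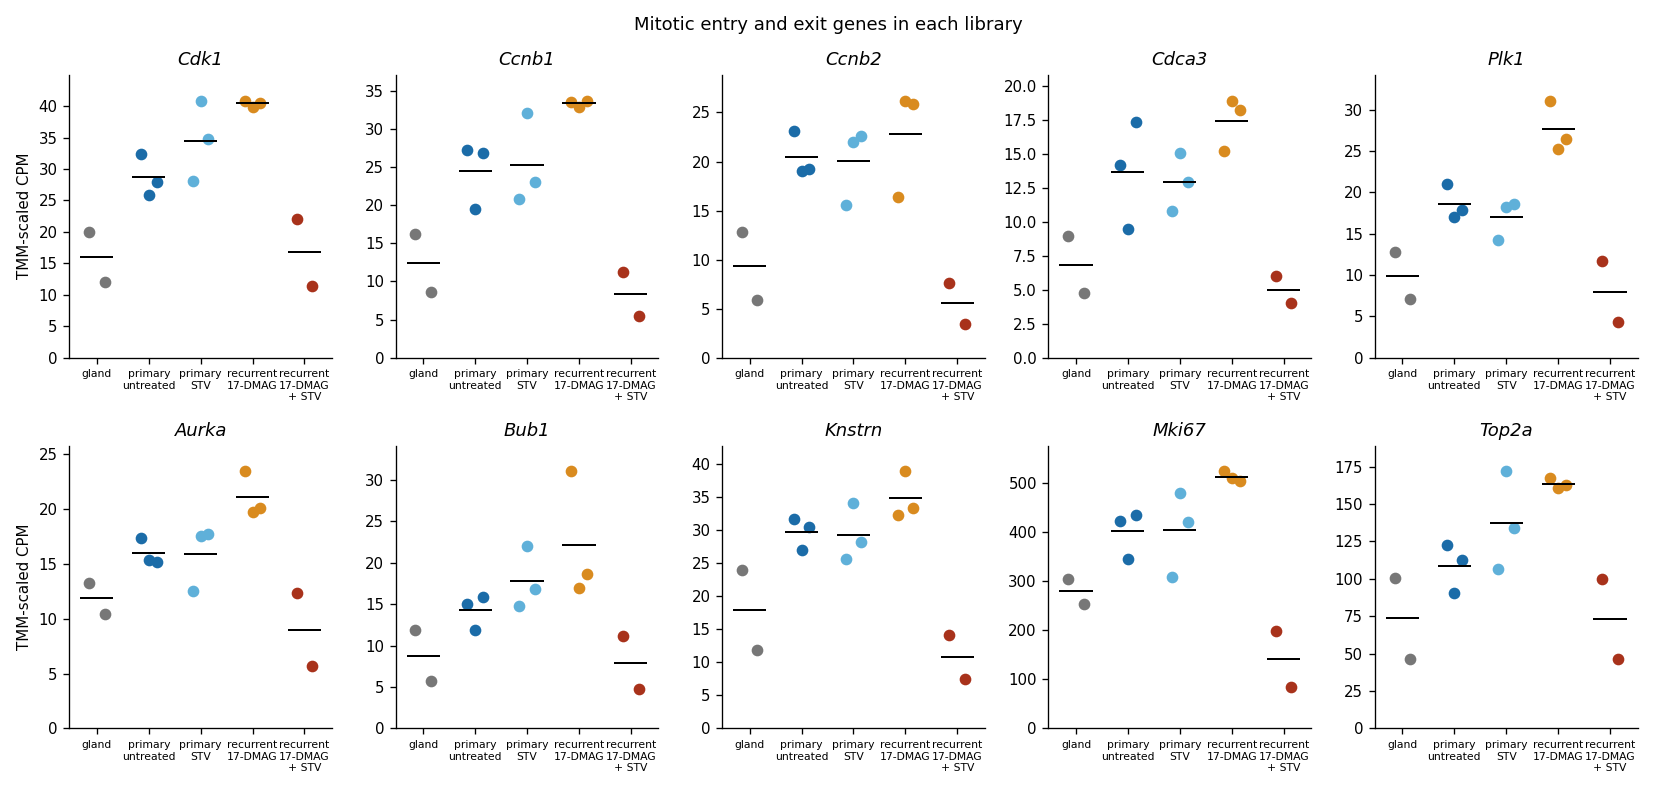
TMM-scaled CPM (linear vertical axis from 0) of each of the 10 genes in the 13 libraries, with 1 point per library, 1 column per group and a black line at the group mean. The recurrent 17-DMAG plus STV tumors have the lowest tumor mean in 10 of 10 panels, while recurrent 17-DMAG tumors have the highest mean.

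The mitotic switch consists of Cdk1, its partners cyclin B1 (Ccnb1) and cyclin B2 (Ccnb2), and Cdca3, which promotes the destruction of the Cdk1-inhibiting kinase Wee1. Ccnb2 (chr9:70407689-70421554) had 5.85 and 12.8 CPM in the 2 glands, 19.0, 19.2 and 23.2 in primary untreated tumors and at 15.6, 22.0 and 22.7 in primary STV tumors. Its levels were 16.3, 25.9 and 26.2 CPM in recurrent 17-DMAG tumors and 3.45 and 7.65 in recurrent 17-DMAG plus STV tumors. Both of these last tumors were thus below each of the other tumors, and Ccnb2 had the widest range over tumors of the 10 genes, 7.61-fold. The level of Ccnb1 (chr13:100778739-100786486) was 19.5 to 27.3 CPM in primary untreated tumors, 20.8 to 32.1 in primary STV tumors, 32.9, 33.6 and 33.8 in recurrent 17-DMAG tumors, and 5.46 and 11.2 in recurrent 17-DMAG plus STV tumors. The 3 recurrent 17-DMAG tumors lay within 1 CPM of each other and above the rest. The glands, at 8.64 and 16.2 CPM, overlapped the recurrent 17-DMAG plus STV tumors. The genome annotation also lists processed pseudogenes of Ccnb1 and Ccnb2, which are not rows of the table, so part of the reads of these genes could be shared or lost. Cdk1 itself (chr10:69335146-69352912) varied less, with a 3.59-fold range. It measured 12.1 and 19.9 CPM in the glands, 25.8, 28.0 and 32.4 in primary untreated tumors, 28.0, 34.8 and 40.8 in primary STV tumors, 39.9, 40.5 and 40.9 in recurrent 17-DMAG tumors, and 11.4 and 22.1 in recurrent 17-DMAG plus STV tumors. Cdk1 is the only gene of the set whose mean was lower in the glands, at 16.0 CPM, than in recurrent 17-DMAG plus STV tumors, at 16.7, and these groups overlapped. Cdca3 (chr6:124829530-124833701) had 4.75 and 8.95 CPM in the 2 glands and 9.46 to 17.3 in primary untreated tumors. It was at 10.8 to 15.1 CPM in primary STV tumors, 15.2 to 18.9 in recurrent 17-DMAG tumors, and 4.02 and 6.003 in recurrent 17-DMAG plus STV tumors.

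Of the mitotic kinases, Plk1, which drives Cdk1 activation and centrosome maturation, had the wider range over tumors, 7.20-fold against 4.12-fold for Aurka. Plk1 (chr7:122159435-122169884) stood at 17.0, 17.9 and 21.0 CPM in primary untreated tumors and 14.2, 18.2 and 18.6 in primary STV tumors. Recurrent 17-DMAG tumors had 25.3, 26.5 and 31.1 CPM, above each primary tumor, and recurrent 17-DMAG plus STV tumors had 4.32 and 11.6, below each of them. The glands had 7.03 and 12.8 CPM. Aurka (chr2:172356190-172370886), acts with Tpx2 at the spindle poles. Its level was 15.2 to 17.4 CPM in primary untreated tumors, 12.5 to 17.7 in primary STV tumors and 19.7 to 23.5 in recurrent 17-DMAG tumors. The recurrent 17-DMAG plus STV tumors measured 5.69 and 12.4 CPM, and the higher of them, at 12.36, was just under the lowest primary STV tumor, at 12.53. The groups were separate by this margin only. Aurka overlaps the gene Cstf1 in the annotation, and the strand setting of the counting is not given in the sources used here, so reads of the overlap are uncertain.

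At the kinetochore, Bub1 is a kinase of the spindle checkpoint and Knstrn (kinastrin) helps microtubules hold on. Bub1 (chr2:127800197-127831859) was at 11.9, 15.1 and 15.8 CPM in primary untreated tumors, 14.7, 16.8 and 22.1 in primary STV tumors, 16.9, 18.6 and 31.0 in recurrent 17-DMAG tumors, and 4.75 and 11.1 in recurrent 17-DMAG plus STV tumors. The value of 31.0 belonged to recurrent 17-DMAG replicate 1 and stood apart from the other 2 tumors of that group, which lay in the range of the primary STV tumors. Knstrn (chr2:118813988-118837210) was at 27.0, 30.5 and 31.7 CPM in primary untreated tumors and 25.6, 28.2 and 34.1 in primary STV tumors. It was at 32.3, 33.3 and 38.9 CPM in recurrent 17-DMAG tumors and at 7.46 and 14.1 in recurrent 17-DMAG plus STV tumors. No other tumor had less than 25.6 CPM of Knstrn. Gland levels were 5.71 and 11.9 CPM for Bub1 and 11.9 and 24.0 CPM for Knstrn, the lower value in gland 2 each time.

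Mki67 coats the mitotic chromosomes, and Top2a untangles sister DNA strands. Mki67 (chr7:135689784-135716450) had the highest level per length. Per kilobase of exon sequence its group means were 27.7 CPM in glands, 39.8 in primary untreated, 40.1 in primary STV, 50.9 in recurrent 17-DMAG and 14.02 in recurrent 17-DMAG plus STV tumors. Top2a came next with 20.8 CPM per kilobase in primary untreated tumors, and the other 8 genes lay between 4.17 and 13.4 there. On the scale of the gene, Mki67 read 252 and 305 CPM in the glands, 345, 423 and 435 in primary untreated tumors, 309, 421 and 479 in primary STV tumors, 503, 510 and 523 in recurrent 17-DMAG tumors, and 198 and 83.8 in recurrent 17-DMAG plus STV tumors. Mki67 was the only gene for which the recurrent 17-DMAG plus STV tumors also lay below both glands. When counts were scaled to library totals alone, gland 2 fell to 124 CPM and this separation was lost. Top2a (chr11:98992947-99024199) read 90.7, 112 and 122 CPM in primary untreated tumors, 106, 134 and 172 in primary STV tumors and 161, 163 and 167 in recurrent 17-DMAG tumors. In recurrent 17-DMAG plus STV tumors it read 46.4 and 100.01 CPM. Top2a is the exception of the set: primary untreated replicate 2, at 90.7, was below 1 of these recurrent tumors. The glands, at 46.3 and 101 CPM, covered the same range as the recurrent 17-DMAG plus STV tumors.

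The first comparison asks how primary tumors differ from cancer-free glands. All 10 genes had a higher mean in primary untreated tumors, by a median of 0.78 on the log2 scale (0.43 for Aurka to 1.13 for Ccnb2), while the median over 17135 genes tested was -0.02. The estimate for Cdk1 was 0.84 ± 0.30 (SE) and that for Mki67 0.52 ± 0.31. Levels did not overlap between the groups for 9 of 10 genes, all but Top2a, against 18.8% of all genes tested in that direction. With 3 tumors against 2 glands, edgeR's quasi-likelihood test called 0 of 10 at an adjusted p under 0.05 (background 0.28%), and 6 of 10 had an unadjusted p under 0.05 (background 9.3%). DESeq2 called 1 of 10 (background 4.13%) and limma voom 0 of 10 (background 0.409%). The glands differed from each other in each of the 10 genes. Without gland 1 the median difference was 1.35 and edgeR called 5 of 10, the remaining gland being assumed to vary like the other groups. Basal and myoepithelial markers summed to 336 to 973 CPM in glands and 27.1 to 66.9 CPM in primary untreated tumors, and adipocyte markers to 716 to 834 against 31.4 to 102. Fibroblast markers summed to 2340 to 2631 CPM against 424 to 940, B and plasma cell markers to 153 to 463 against 1.47 to 7.30, pan-leukocyte markers to 101 to 506 against 63.0 to 70.5 and milk protein genes to 27106 to 692507 against 6673 to 16923. T cell markers summed to 106 CPM in gland 1 and 5.60 in gland 2. The part of these tissues in the difference was not tested. Relative to the mean log2 level of the luminal markers, which was higher in the glands, the median difference of the 10 genes was 1.43. The summed CPM of these markers was not higher in the glands, at 2042 to 2565 against 2419 to 3041 in primary untreated tumors. The value of 1.43 thus depends on how the markers are summarized.

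Between primary tumors with and without STV, the estimates of the 10 genes lay close to 0. The median log2 difference between primary STV and primary untreated tumors was -0.01, from -0.14 for Plk1 to 0.33 for Top2a, with 4 genes higher and 6 lower. The median over all 16870 genes was -0.03. The groups overlapped for 10 of 10 genes (10.9% of all genes did not overlap, in either direction). edgeR called 0 of 10 genes (background 0%), 0 of 10 had an unadjusted p under 0.05 (background 3.76%), and DESeq2 called 0 of 10 (background 0.102%). Standard errors ran from 0.22 to 0.34, which does not show that the groups were alike. Top2a, at 0.33 ± 0.27, Bub1, at 0.31 ± 0.34, and Cdk1, at 0.25 ± 0.23, had the largest positive estimates.

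Recurrence after 17-DMAG without STV went with higher means. All 10 genes were higher in recurrent 17-DMAG than in primary untreated tumors, by a median of 0.41 (0.14 for Ccnb2 to 0.62 for Bub1), and the median over all genes was -0.01. Ccnb1 differed by 0.43 ± 0.26, Top2a by 0.58 ± 0.27 and Mki67 by 0.34 ± 0.28. Each recurrent tumor was above each primary untreated tumor for 8 of 10 genes, all but Ccnb2 and Cdca3 (background 7.11%). In edgeR 0 of 10 were called (background 0%) and 0 of 10 had an unadjusted p under 0.05 (background 4.79%), DESeq2 called 0 of 10 (background 0.126%) and limma voom 0 of 10 (background 0%). Relative to the luminal markers the median difference was 0.012. The mean log2 level of these markers was 7.99 in recurrent 17-DMAG replicate 1, against 7.08 and 7.14 in the other tumors of that group and 6.89 to 7.19 in primary untreated tumors.

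**Figure D2:**
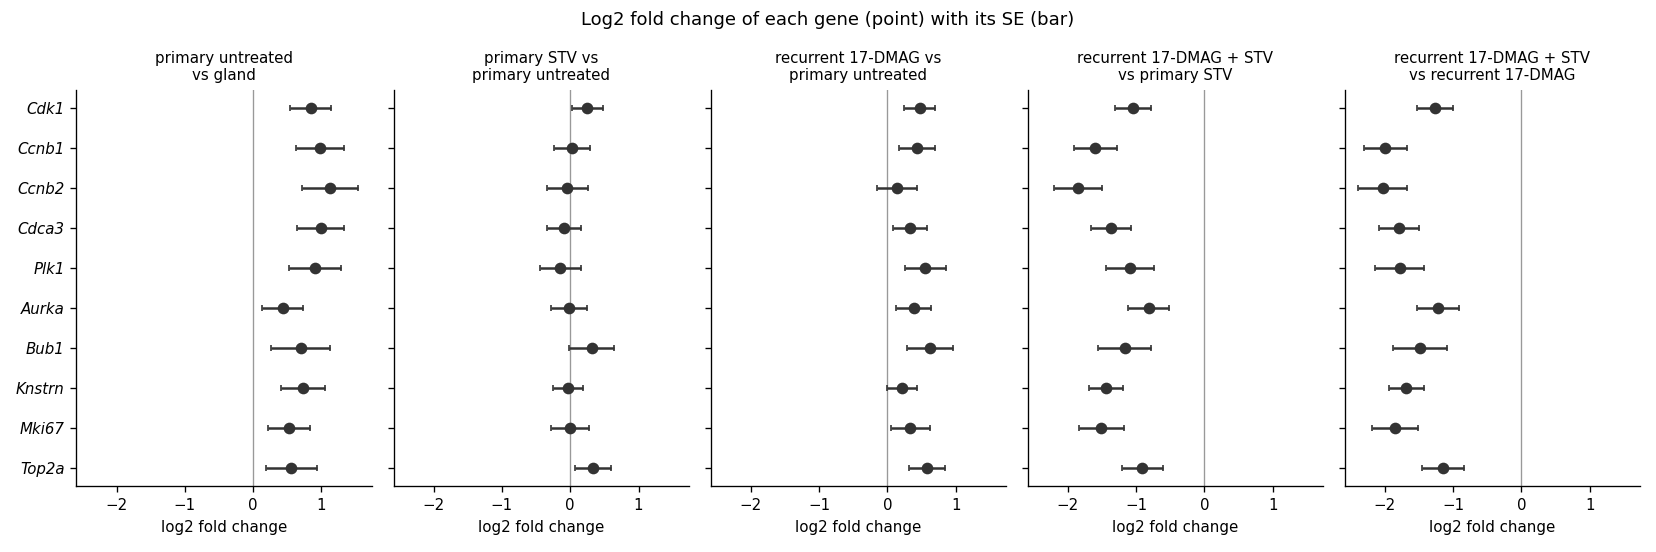
Log2 fold change (horizontal axis) of each gene in 5 comparisons, with points for the edgeR estimate and bars for its SE. In the 2 panels on the right, which compare recurrent 17-DMAG plus STV tumors with primary STV tumors and with recurrent 17-DMAG tumors, 10 of 10 points lie left of 0, from -0.82 to -2.03.

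Under STV the difference between recurrent and primary tumors had the opposite sign. All 10 genes were lower in recurrent 17-DMAG plus STV than in primary STV tumors, by a median of -1.27, and the median over all genes was 0.01. The estimates were -1.85 ± 0.36 for Ccnb2, -1.60 ± 0.31 for Ccnb1, -1.51 ± 0.33 for Mki67, -1.44 ± 0.25 for Knstrn and -1.36 ± 0.29 for Cdca3. They were nearer to 0 for Bub1 (-1.17 ± 0.39), Plk1 (-1.09 ± 0.35), Cdk1 (-1.04 ± 0.26), Top2a (-0.91 ± 0.30) and Aurka (-0.82 ± 0.30). Levels did not overlap for 10 of 10 genes, against 17.6% of all genes in that direction. By edgeR's adjusted p, 0 of 10 were called (background 0%, since 0 of 16870 genes were), and 10 of 10 had an unadjusted p under 0.05 (background 4.64%). DESeq2 called 6 of 10 (background 1.01%) and limma voom 0 of 10 (background 0%). Since the set was chosen with this contrast known, nothing is read from these counts. The difference was carried unevenly by the 2 recurrent tumors. The mean log2 CPM over the 10 genes was 4.23 in replicate 1 and 3.15 in replicate 2, and 4.77, 5.30 and 5.09 in primary STV tumors. Without replicate 2 the median difference was -0.86 and without replicate 1 it was -1.95. Without replicate 1 edgeR called 6 of 10, the lone tumor being assumed to vary like the other groups.

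Compared with recurrent tumors that had regrown without STV, the 10 genes were again lower in those with STV, by a median of -1.73 (-1.15 for Top2a to -2.03 for Ccnb2), with a median of 0.00 over all genes. The comparison shares the recurrent 17-DMAG plus STV tumors with the previous one. Knstrn differed by -1.68 ± 0.26, Ccnb1 by -1.99 ± 0.32 and Mki67 by -1.85 ± 0.33. The groups were separate for 10 of 10 genes (background 10.4%). edgeR called 0 of 10 (background 0%) and gave 10 of 10 an unadjusted p under 0.05 (background 4.38%). DESeq2 called 10 of 10 (background 1.13%), and limma voom called 0 of 10 (background 0%). Leaving out recurrent 17-DMAG plus STV replicate 1 gave 8 calls by edgeR and a median of -2.23, and leaving out replicate 2 a median of -1.28. Relative to the luminal markers the median was -1.27.

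Averaged over both water arms, recurrent minus primary tumors gave a median of -0.40, with 10 of 10 genes lower, although the estimates had opposite signs in the arms. edgeR called 0 of 10 (background 0%), 5 of 10 had an unadjusted p under 0.05 (background 6%), DESeq2 called 2 of 10 (background 0.976%) and limma voom 0 of 10 (background 0%). The interaction of recurrence and STV, which is the recurrence difference with STV minus that without, was negative for 10 of 10 genes, with a median of -1.68 and a range from -1.20 ± 0.39 for Aurka to -2.03 ± 0.41 for Ccnb1. Here edgeR called 0 of 10 (background 0%) and gave 10 of 10 an unadjusted p under 0.05 (background 4.01%), DESeq2 called 7 of 10 (background 0.724%), and limma voom 0 of 10 (background 0%). Without recurrent 17-DMAG plus STV replicate 1, edgeR called 8 of 10 and the median was -2.39. For 8 of 10 genes, all but Ccnb2 and Cdca3, recurrent 17-DMAG tumors lay above primary untreated tumors and recurrent 17-DMAG plus STV tumors below primary STV tumors without overlap, which 1.36% of all genes tested did.

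Some markers of other cell types differed between the same groups. In the recurrent 17-DMAG plus STV tumors the luminal markers summed to 1582 and 2583 CPM, against 2474 to 2824 in primary STV tumors, and fibroblast markers to 1432 to 1896 CPM against 281 to 681. Macrophage markers summed to 265 to 289 CPM against 154 to 174, and skeletal muscle markers to 13.3 to 1457 against 1.14 to 142. In the recurrent 17-DMAG plus STV tumors 0 of the genes of those 4 lists were at 0. The other lists, in the same order of groups, summed to 97.9 to 126 CPM against 60.5 to 75.7 for pan-leukocyte, 98.5 to 155 against 71.4 to 102 for endothelium, 65.7 to 272 against 22.8 to 79.6 for basal and myoepithelial and 4599 to 18731 against 8558 to 12518 for milk protein genes. Adipocyte (32.0 to 100.5 against 15.8 to 81.9), T cell (3.45 to 7.88 against 4.09 to 7.34) and B and plasma cell (1.53 to 2.87 against 1.45 to 4.92) markers are the remaining lists. Fibroblast, macrophage and pan-leukocyte markers did not overlap between the groups, and the other 8 lists did. Among single genes, 2972 of 16870 lay higher in the recurrent tumors without overlap and 2975 lower, so such separation was frequent in this comparison. In recurrent 17-DMAG tumors fibroblast markers summed to 5728 CPM in replicate 1 and to 356 and 968 CPM in the other 2. Of the recurrent 17-DMAG plus STV tumors, replicate 2 held the sums of 1457 for muscle, 272 for basal and 1582 for luminal markers. This luminal sum was the lowest of all tumors. Fibroblast, endothelium, adipocyte and B and plasma cell sums were higher in replicate 2. Macrophage, pan-leukocyte, T cell and milk protein sums were higher in replicate 1. The mean log2 CPM of the mitotic genes was 3.15 in replicate 2 and 4.23 in replicate 1. The part of stroma and muscle in the lower mitotic genes was not tested. Relative to the luminal markers, the member median against primary STV tumors was -1.11.

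The 10 genes varied together. Over the 11 tumors, Pearson's r between the log2 CPM of a pair had a median of 0.94 over 45 pairs, from 0.79 for Ccnb2 and Bub1 to 0.99 for Ccnb1 and Mki67. After group means were subtracted, the median was 0.84, and without the 2 recurrent 17-DMAG plus STV tumors it was 0.75, with a lowest value of -0.14 for Ccnb2 and Bub1. In recurrent 17-DMAG replicate 1, for example, Bub1 was the highest and Ccnb2 the lowest of the group. These values share libraries and depth and are a description over 11 tumors. Among 12748 genes, the patterns most like the mean of the 10 were those of Kif20a (r = 0.996), Ccna2, Prc1, Aspm, Nek2, Cenpe, Cenpa and Nusap1 (0.99). Kif20a and Prc1 build the central spindle, Ccna2 is cyclin A2, and Cenpa and Cenpe belong to the centromere. In all, 105 genes reached r of at least 0.9, whereas 8 had -0.9 or lower, led by Zswim8 (-0.93), Mid1ip1, Pa2g4 and Ppp3r1. Without the 2 recurrent 17-DMAG plus STV tumors, 4 of the 8 most similar and 0 of the 4 most opposite genes were still among the first 8 and the last 4.

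To place the 10 genes within the cell cycle, 8 lists with 120 further genes were read in the same fits, and the comparison of recurrent 17-DMAG plus STV with primary STV tumors is given for each. By edgeR's adjusted p, 0 genes of these lists were called there, as for all genes (background 0%). DESeq2 called 21, each of them lower (background 1.01%). Counts below use the unadjusted p under 0.05, which 4.64% of all genes met in the lower direction. Like the 10 genes, the lists were chosen with earlier results of these data known, and they are read in the same tumors. Their counts are a description and no separate support for the lower level of the 10 genes.

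Most mitotic genes outside the set were lower as well. In condensation and cytokinesis 13 of 16 genes had an unadjusted p under 0.05 in the lower direction (median -1.09), led by Ckap2l (-1.70 ± 0.36), Hmmr (-1.60 ± 0.40) and Kif23 (-1.44 ± 0.36), genes of the spindle and the midbody. In the spindle checkpoint list 12 of 16 did (median -0.97), among them Knl1, listed as Casc5, the kinetochore platform for Bub1 (-1.32 ± 0.32), Bub1b (-1.12 ± 0.39), Cdca8 (-1.21 ± 0.43) and Aurkb (-1.17 ± 0.39). Spag5, the partner of Knstrn at the kinetochore, stood at -1.79 ± 0.60, but its levels were scattered, at 204, 437 and 643 CPM in primary STV tumors and 185 and 63.1 CPM in recurrent 17-DMAG plus STV tumors. In mitotic entry 9 of 14 did (median -0.64), with the phosphatases Cdc25c (-1.82 ± 0.42) and Cdc25b (-1.25 ± 0.31), which activate Cdk1, and with Tpx2 (-1.17 ± 0.31) and Ccna2 (-1.07 ± 0.26). Cdc25c read 9.19, 12.3 and 14.97 CPM in primary STV tumors and 5.22 and 1.65 in recurrent 17-DMAG plus STV tumors. Ensa and Arpp19, inhibitors of the phosphatase that opposes Cdk1, had estimates of 0.03 and -0.14.

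The mitotic exit list was divided. Only 6 of 25 genes had an unadjusted p under 0.05 in the lower direction, and the median was -0.03. Those 6 were Cdc14a (-1.58 ± 0.37), the securin gene Pttg1 (-1.54 ± 0.40), the APC/C activator Cdc20 (-1.49 ± 0.41), the ubiquitin-conjugating enzyme Ube2c (-1.13), separase Espl1 (-0.84) and the APC/C inhibitor Fbxo5 (-0.73). The subunits of the APC/C itself lay near 0, as with Anapc1 (0.01), Cdc23 (0.05) and Cdc27 (0.07). Fzr1, the activator that replaces Cdc20 late in mitosis and in G1, differed by -0.33 ± 0.19. Cdc20 was at 19.9, 26.7 and 26.9 CPM in primary STV tumors and at 12.1 and 5.30 in recurrent 17-DMAG plus STV tumors, and Pttg1 at 7.11, 8.14 and 9.22 against 4.26 and 1.35.

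**Figure D3:**
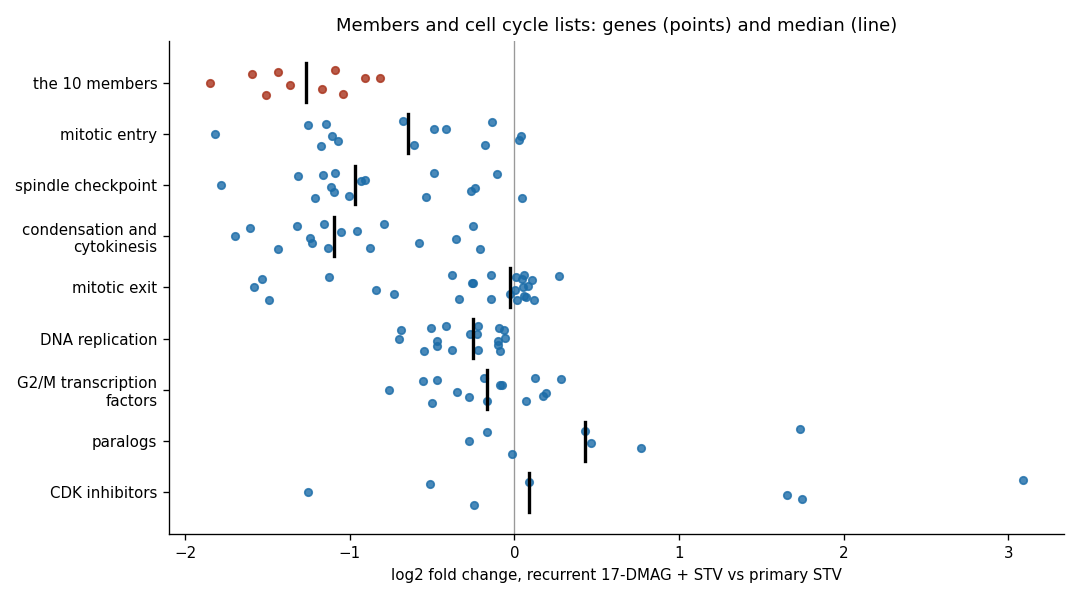
Log2 fold change between recurrent 17-DMAG plus STV and primary STV tumors (horizontal axis) of the 10 genes and of the genes of 8 cell cycle lists, with 1 point per gene and a black line at the median. The medians were -1.27 for the 10 genes, -1.09 for condensation and cytokinesis, -0.25 for DNA replication and -0.03 for mitotic exit, where most APC/C subunits lie near 0.

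Replication of DNA precedes mitosis in the cycle. All 18 genes of the S-phase list had a lower mean (median -0.25), 4 of them with an unadjusted p under 0.05. The largest estimates were -0.70 ± 0.23 for Tyms, which makes thymidylate, -0.69 ± 0.28 for Gins2 and -0.55 ± 0.19 for Pcna, the sliding clamp of DNA polymerase, while the helicase gene Mcm2 stood at -0.06. The mean log2 CPM of the 10 genes minus that of the 18 replication genes was 0.13, 0.57 and 0.29 in primary STV tumors and 0.41, 0.51 and 0.59 in primary untreated tumors. It was 0.48, 0.76 and 0.46 in recurrent 17-DMAG tumors and -0.41 and -0.98 in recurrent 17-DMAG plus STV tumors. These last 2 values were the lowest of the 11 tumors, in a set chosen with its low level there known, and the zero of this scale depends on which genes are averaged. Gland 1 had 0.26 and gland 2 -0.61.

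**Figure D4:**
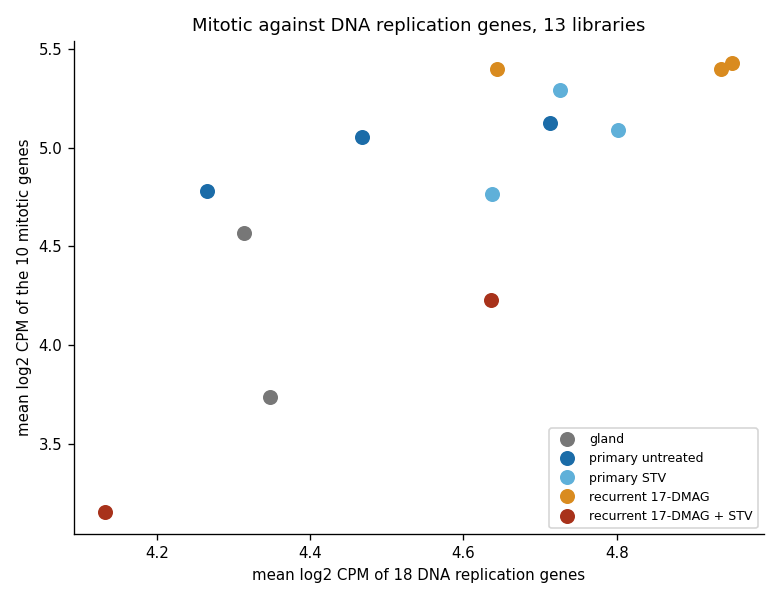
Mean log2 CPM of the 10 mitotic genes (vertical axis) against that of 18 DNA replication genes (horizontal axis), with 1 point per library colored by group. The recurrent 17-DMAG plus STV tumors have the lowest means of the mitotic genes among tumors, 4.23 and 3.15, where primary STV tumors have 4.77 to 5.30.

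Among the transcription factors of the G2/M program, 1 of 15 had an unadjusted p under 0.05 in the lower direction, and the median was -0.16. This was Foxm1 (-0.76 ± 0.30), an activator that itself peaks in G2, at 16.1, 21.7 and 22.8 CPM in primary STV tumors, 16.2 and 7.58 in recurrent 17-DMAG plus STV tumors and 28.2, 30.5 and 32.1 in recurrent 17-DMAG tumors. One of the recurrent 17-DMAG plus STV tumors thus lay within the primary STV range. Mybl2, the B-Myb partner of the same complex, had an estimate of 0.19 ± 0.44, that of Rbl2 was -0.56 ± 0.27 and that of Nfyc, a CCAAT-binding subunit, -0.50 ± 0.37.

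Paralogs of the 10 genes that serve other phases had estimates on both sides of 0. Top2b, the form of topoisomerase II present in resting cells, ranged from 173 to 196 CPM over the 11 tumors, with a difference of -0.02 ± 0.10. Cdk2 differed by -0.17, Cdk4 by 0.47 ± 0.22, Plk3 by 0.77 ± 0.49 and Plk2, a stress-induced relative of Plk1, by 1.74 ± 0.62. The value for Plk2 came from 1 tumor: it was at 60.1 CPM in recurrent 17-DMAG plus STV replicate 1 and 488 in replicate 2, against 60.3 to 97.6 in primary STV tumors. Ccnb3 and Aurkc did not pass the filter on low counts and reached at most 0.0408 and 0.131 CPM. Of 7 CDK inhibitor genes, 1 had an unadjusted p under 0.05, in the higher direction (914 of all 16870 genes). This was Cdkn1a (p21), with 3.09 ± 1.097, at 4.03, 6.64 and 14.7 CPM in primary STV tumors and 25.7 and 118 CPM in recurrent 17-DMAG plus STV tumors. Outside this comparison, Cdkn1a reached 71.1 CPM in gland 2, 48.8 in recurrent 17-DMAG replicate 1 and 39.2 in primary untreated replicate 2. The mean log2 CPM of the 10 genes in these libraries was 3.74, 5.43 and 4.78, in the same order. A link between Cdkn1a and the 10 genes was not tested. Cdkn1c differed by -1.25 ± 1.15 and Cdkn2d by -0.51 ± 0.32.

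The lists were read in the other comparisons too. Recurrent 17-DMAG tumors against primary untreated tumors gave medians of 0.50 for the spindle checkpoint (6 of 16 genes higher with an unadjusted p under 0.05), 0.45 for condensation and cytokinesis (1 of 16), 0.37 for DNA replication (4 of 18) and 0.30 for mitotic entry (1 of 14), where 4.79% of all genes met that mark. For mitotic exit the median was 0.06 (3 of 25). Primary STV against primary untreated tumors gave medians between -0.03 and 0.24 for the 7 lists other than the CDK inhibitors (0.48). Estimates were positive for 17 of 18 DNA replication, 15 of 16 spindle checkpoint and 14 of 16 condensation and cytokinesis genes. The same held for 16 of 25 mitotic exit, 7 of 14 mitotic entry, 6 of 15 G2/M factor genes and 2 of 7 paralogs. Over the 8 lists 1 gene had an unadjusted p under 0.05, a smaller share than the 3.76% of all genes in either direction. This was Cdc14a, with 1.28 ± 0.32, at 37.1 to 69.4 CPM in primary untreated, 87.4 to 189 in primary STV, 80.0 to 97.8 in recurrent 17-DMAG, and 37.7 and 44.1 in recurrent 17-DMAG plus STV tumors. Recurrent 17-DMAG tumors differed from primary untreated tumors in Cdc14a by 0.80 ± 0.32. Against the glands, primary untreated tumors had medians of 0.71 for condensation and cytokinesis and 0.66 for the spindle checkpoint, and edgeR called 1 gene of the 8 lists, Rrm2, a subunit of ribonucleotide reductase, which was higher in the tumors by 0.86 ± 0.19 (adjusted p = 0.0475, background 0.28%). This call was lost with RLE size factors, without the filter on low counts, with the replicate block, in the fit of these groups only and on leaving out any 1 of 11 of the 13 libraries.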

How the data were processed

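RNA of 11 mammary tumors and 2 cancer-free glands was sequenced. According to the methods of the study and its processing notes, the authors demultiplexed the reads with bcl2fastq 2.20, used STAR to align them to mouse genome GRCm38 (mm10) and obtained counts with featureCounts of Subread 1.6.2. What the authors deposited is 1 table of unnormalized whole-number counts, with genes as rows and libraries as columns. Whether counting used the strand, and how multi-mapping reads were treated, are not given in the sources used here. Whether each tumor came from its own mouse is not stated, so p-values measure the spread between these samples.

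From these counts, edgeR 4.0.16 (R 4.3.3) fitted the quasi-likelihood test with robust dispersion, filterByExpr and TMM factors. The gland contrast was fitted on 13 libraries (17135 genes) and the other 6 contrasts on the 11 tumors (16870 genes), with 1 mean per group. P-values were two-sided and adjusted by Benjamini and Hochberg over all genes, with a threshold of 0.05. DESeq2 1.42.0 and limma 3.58.1 (voom) were alternatives, next to other scaling, no filter, fewer groups, a replicate block and leaving out each library. Levels are CPM, and log2 CPM used a prior count of 2. The edgeR code was run on simulated counts with known changes for 1 comparison, with less variation between samples than in these tumors. That run does not give error rates or power for these data. Gene positions and promoters came from RefSeq (GRCm38.p6), exon lengths from GENCODE. The 10 members, the 8 cell cycle lists and the 11 marker lists were chosen with earlier results of these data known. The text names all 10 members, from each list the 3 genes with the largest change between recurrent 17-DMAG plus STV and primary STV tumors at a mean log2 CPM of at least 1, the partners Foxm1, Mybl2, Cdc20, Fzr1, Bub1b, Spag5, Tpx2, Aurkb, Top2b, Ccna2 and Cdkn1a, and the 8 genes most and the 4 least correlated with the mean of the members. Further genes of a list were named after their values were seen: Ube2c, Espl1, Fbxo5, Ensa, Arpp19, Anapc1, Cdc23, Cdc27, Mcm2, Rrm2, Cdk2, Ccnb3 and Aurkc.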

Additional observations from a re-analysis of the deposited data

Results flagged for a closer look

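For 8 of the 10 genes, each recurrent 17-DMAG tumor was above each primary untreated tumor while each recurrent 17-DMAG plus STV tumor was below each primary STV tumor, so the recurrence differences of the arms pointed in opposite directions. Of all 16870 genes tested, 1.36% met both conditions. The interaction of recurrence and STV on the log2 scale was -1.52 for Cdk1, -2.03 for Ccnb1, -1.64 for Plk1, -1.20 for Aurka, -1.79 for Bub1, -1.65 for Knstrn, -1.85 for Mki67 and -1.48 for Top2a. These genes were picked out by the position of their libraries and not by a test. Relative to the mean log2 level of the luminal markers, the mean of the 10 genes no longer separated recurrent 17-DMAG from primary untreated tumors. It was -2.56, -1.68 and -1.74 in the former and -1.77, -2.42 and -1.87 in the latter. Recurrent 17-DMAG plus STV tumors, at -2.83 and -3.66, stayed below primary STV tumors, at -2.55, -1.77 and -1.81 on that scale. The interaction term of the edgeR fit did not pass for any of the 10 genes (adjusted p = 0.435 to 0.535), whereas DESeq2 called 7. With 2 or 3 samples per group, no group was large enough to look for single outlying samples.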

How the results depend on the processing

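In every alternative fit the signs of the 10 member estimates held against the glands and for recurrent 17-DMAG against primary untreated tumors. They also held for recurrent 17-DMAG plus STV against both other groups and for the interaction. Scaling to the luminal markers was applied to the median only, so the signs of single members were not read under it. Between primary STV and primary untreated tumors 6 members changed sign at least once, and between all recurrent and primary tumors 3. DESeq2 called 2352 genes against the glands (361 by edgeR), 17, 61, 331 and 266 in the 4 comparisons between tumor groups in the order of the report, 410 for all recurrent against primary tumors and 189 for the interaction, where edgeR called 0 each time. Of the 120 cell cycle list genes DESeq2 called 9 against the glands (1 by edgeR). This is a smaller share than the 2352 of 16945 over all genes tested. It called 21 against primary STV tumors (background 1.01%), 34 against recurrent 17-DMAG tumors (background 1.13%) and 27 for the interaction (background 0.724%). All of these tumor calls were in the lower direction, as are their backgrounds. The single list gene called against the glands was lost, leaving 0, with RLE size factors, without the filter, with the replicate block and in the fit of these groups only. The last fit called 0 genes against the glands and 2 for recurrent 17-DMAG plus STV against primary STV tumors. Deviations from group means correlated by -0.295 to 0.222 between same-numbered samples and by -0.366 to 0.369 between differently numbered ones. Within a group the deviations sum to 0, so these values cannot show whether replicate numbers mark pairs. With the replicate block 4 genes were called against the glands, 0 members in any comparison and 0 genes in each of the other 6. Leaving out 1 library in turn, the genes called ranged from 0 to 3381 against the glands, the latter without gland 1, and the list genes from 0 to 31. They ranged from 0 to 100 (list genes 0 to 11) for recurrent 17-DMAG plus STV against primary STV, 0 to 141 (0 to 23) against recurrent 17-DMAG, 0 to 77 (0 to 13) for the interaction, 0 to 6 for all recurrent tumors and 0 to 1 for recurrent 17-DMAG tumors, with the highest value without recurrent 17-DMAG plus STV replicate 1, except for the last, where it came without primary untreated replicate 1. The member median then ranged from 0.56 to 1.35, from -1.95 to -0.86, from -2.23 to -1.28 and from -2.39 to -1.31 for the glands, primary STV, recurrent 17-DMAG and the interaction. The member median was also scaled to the mean log2 level of the luminal markers, an alternative chosen after seeing the data. It was then 1.43 against the glands and 0.012 for recurrent 17-DMAG against primary untreated tumors. For recurrent 17-DMAG plus STV against recurrent 17-DMAG tumors it was -1.27. With library totals alone, the glands had the lowest mean of all groups for 3 members in place of 1. The cause of these shifts was not tested.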
